A study of Sus scrofa with 18 samples.

Results

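The genes described here are those of the spliceosome, the machine that removes introns from pre-mRNA, in the backfat of growing pigs. They were taken from the pathway annotation in the deposited expression table: 116 of its 27883 loci carried the KEGG spliceosome entry, HSPA8 was left out by rule, and a locus had to reach 0.5 FPKM in at least 3 libraries. HSPA1L, a heat shock gene under the same entry, reached that level in 0 of 18 libraries with a mean of 0.25 FPKM, so 114 genes were kept. Of these, 113 were at or above 0.5 FPKM in all 18 libraries. FPKM is a level corrected for transcript length and sequencing depth and was used to set genes beside each other.

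The study sequenced total RNA depleted of ribosomal RNA from shoulder backfat of castrated male Ningxiang pigs, an indigenous fat breed of China, at 6 ages spaced 60 days apart, from 60 to 360 days. There were 3 pigs and 3 libraries at each age and 18 in all, with no treatment. According to the methods, the 3 pigs of a stage were full sibs and pigs of different stages shared 1 parent, so age and litter cannot be told apart. The question asked of the data is how the genes of backfat change as the depot grows, with each stage compared with the one before it.

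In the background, intron removal is carried out by particles made of a small nuclear RNA and proteins. U1 binds the 5′ splice site, U2 binds the branch site next to the 3′ splice site, and the U4/U6 and U5 particles then join as a tri-snRNP. The PRP19 complex helps to activate the assembled machine, helicases of the DEAD and DEAH families drive its rearrangements, and a second set of factors completes exon joining. SR proteins bind exons and mostly promote the use of nearby splice sites, whereas hnRNPs often oppose it. Most of these proteins are used by every cell, and some regulators, SRSF10 among them, are known from mouse to affect the choice of exons during fat cell formation.

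The libraries held 74077094 to 84236689 counts. Scaling factors of the trimmed mean of M values (TMM) lay between 0.885 and 1.05, and the lowest belonged to replicate 3 of 360 days, in which the 10 largest loci took 19.0% of the counts against 9.37% to 14.3% in the other libraries. In the sequencing statistics of the paper this library also had the highest GC content and the lowest share of mapped reads. Comparisons between libraries use counts scaled in this way to a common library size, in the usual unit CPM. Although all pigs are described as castrated males, the 4 loci that carry Y-linked genes summed to 0.226 to 13.1 CPM in 7 libraries and to 128 to 278 CPM in the other 11. The 7 were replicates 1 and 3 of 60 days, replicate 2 of 120 days, all 3 of 180 days and replicate 2 of 300 days, called the low-Y libraries below. Stages 60, 120 and 300 days held both kinds of library, 180 days held low-Y libraries alone, and 240 and 360 days held none of them. At 240 against 180 days, age and the Y-linked level therefore cannot be told apart. A trend along age is partly mixed with that level as well, since most low-Y libraries were of 60 to 180 days. With the log2 of the summed Y-linked CPM added to the model, edgeR again called 0 of 114 genes in each comparison of adjacent stages. The fit without this term had also called 0 there, so this count cannot show whether the Y-linked level matters. Along age, the genes with an edgeR adjusted p of at most 0.05 went from 16 to 6 with the term. The share of all loci that passed in that fit is not given here, so the fall cannot be read as particular to these genes. The markers of fat cells were present throughout: all 7 listed genes were found and their loci summed to 863 to 1471 FPKM.

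The 114 genes were mostly expressed at a moderate level, with means from 1.02 FPKM (U2AF1L4) to 60.5 FPKM (PCBP1). Their median was 4.29 FPKM, against 1.73 FPKM over the 19470 loci tested, and together they took between 0.688% of the counts (replicate 3 of 360 days) and 0.846% (replicate 2 of 60 days). The highest level was that of PCBP1, a poly(C)-binding hnRNP, which had 50.01 FPKM in its lowest library, a median of 60.4 FPKM and 72.5 FPKM in its highest. DDX5, an RNA helicase bound to U1, followed with 26.6, 33.1 and 41.5 FPKM for its lowest, median and highest library. SF3B1, the U2 protein that clamps the branch site, had 18.3, 26.9 and 33.8 FPKM in the same order. The ranges of PCBP1 and DDX5 did not overlap, while those of DDX5 and SF3B1 did. SRSF2, an SR protein, had a mean of 20.5 FPKM and SNU13, which binds a bend in the U4 RNA, a mean of 15.9 FPKM. At the lower end, U2AF1L4, a paralogue of the small U2AF subunit, had a mean of 1.02 FPKM, SF3A2 of U2 1.14 FPKM and SNRPF of the Sm ring 1.19 FPKM.

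**Figure D1:**
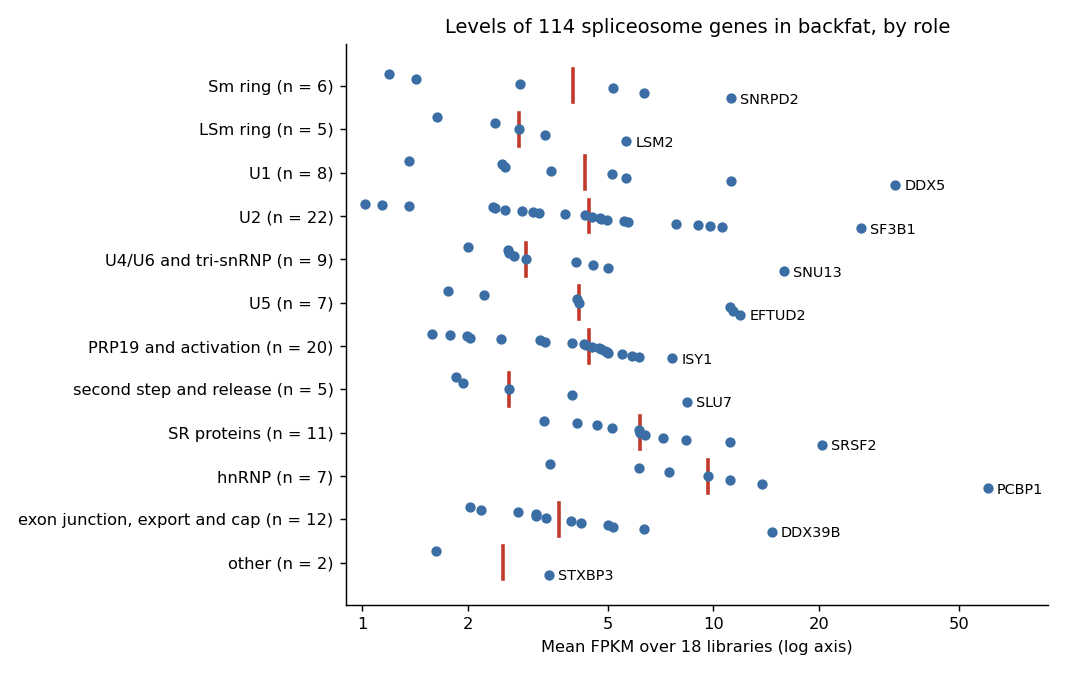
Mean FPKM over 18 libraries (log axis) of each of the 114 genes, 1 point per gene, grouped by role. The red line is the median of the role and the name is that of its highest gene. The hnRNPs have the highest median, 9.69 FPKM, and PCBP1 stands apart at 60.5 FPKM.

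By role, the regulators had higher medians than the particles. The 7 hnRNPs had a median of 9.69 FPKM and the 11 SR proteins 6.17 FPKM. The 22 genes of U2 had 4.42 FPKM, the 20 of the PRP19 complex and activation 4.43 FPKM, the 8 of U1 4.30 FPKM and the 7 of U5 4.14 FPKM. Lower medians were seen for the 6 genes of the Sm ring, which holds the RNA of U1, U2, U4 and U5 (4.0 FPKM), and for the 12 genes of the exon junction complex, mRNA export and the cap (3.64 FPKM). The 9 genes of U4/U6 and the tri-snRNP had 2.92 FPKM, the 5 of the LSm ring on the end of U6 2.80 FPKM and the 5 factors of the second step and release 2.61 FPKM. The remaining 2 genes, RP9 and STXBP3, have no clear place in these particles. Each role was led by a different gene: SNRPD2 (11.3 FPKM) in the Sm ring, LSM2 (5.65 FPKM) in the LSm ring, EFTUD2 (11.9 FPKM), the GTPase of U5, ISY1 (7.65 FPKM) in the PRP19 group, SLU7 (8.40 FPKM) in the second step, and DDX39B (14.7 FPKM), a helicase of mRNA export. Single roles spread widely, from 1.02 to 26.3 FPKM within U2 alone.

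Some loci held more than 1 gene, because they were assembled from the reads. For 25 of the 114 genes the locus had at least 2 names, and for 15 the other name was that of a further named gene. The values of these genes are uncertain, since the share of each gene in the locus is not known. They include DDX5 (with PECAM1 and POLG2), SF3B1 (with ANKRD44), PRPF8 (with SCARF1), TRA2A (with IGF2BP3), SRSF1 (with VEZF1), PRPF31 (with CNOT3), PHF5A (with TOB2), U2AF2 (with EPN1), SNRPG (with PCYOX1), ISY1 (with CNBP) and SF3A2 (with AMH). Close copies elsewhere in the genome are also common for small ring proteins and for hnRNP genes, and reads of RBMXL1, HNRNPA1, SNRPG and SNRPF may be shared with such copies.

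The levels differed little between stages. For each gene, the highest stage mean of CPM was divided by the lowest, and the median of this ratio was 1.23 over the 114 genes, against 1.57 over all loci tested and 1.44 over the 14411 loci with a mean of at least 1 FPKM. The ratio reached 2 in 1 of 114 genes (0.877%), compared with 29.8% of all loci tested and 16.6% of those with at least 1 FPKM. It reached 1.5 in 6 genes (5.26%), compared with 55.4% and 43.3%. Libraries of the same stage were also close: the median within-stage standard deviation on the log2 CPM scale was 0.148 for the 114 genes, 0.313 for all loci and 0.252 for those with at least 1 FPKM. The ratio and the spread between sibs were thus both low, and both were also lower over loci with at least 1 FPKM than over all loci. The part of level in the difference was not tested further.

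**Figure D2:**
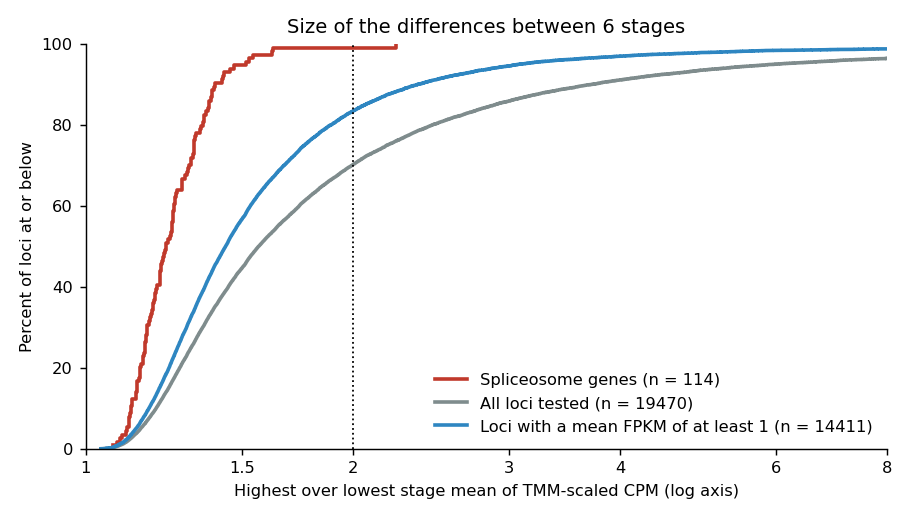
Percent of loci (vertical axis) whose highest stage mean of TMM-scaled CPM was at most the given multiple of the lowest (horizontal log axis), for the 114 spliceosome genes, all 19470 loci tested and the 14411 loci with a mean FPKM of at least 1. The dotted line marks a ratio of 2, which 1 spliceosome gene passed.

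The gene past a ratio of 2 was SNRPF, at 2.24, but it was among the lowest in level. Its 18 values were 3.15, 2.98 and 2.22 CPM at 60 days, 4.0, 3.23 and 3.29 at 120 days, 2.84, 1.92 and 2.77 at 180 days, 1.51, 2.62 and 2.42 at 240 days, 1.53, 2.20 and 0.974 at 300 days, and 3.06, 2.71 and 2.35 at 360 days. The 120-day libraries stood highest, and all 3 libraries of 360 days were above all 3 of 300 days. The next ratios of CPM were 1.62 for SNRPG, another protein of the Sm ring, and 1.62 for BCAS2, a subunit of the PRP19 complex. Both varied as much among sibs: SNRPG had 42.1, 67.8 and 26.7 CPM in the 3 libraries of 180 days alone. At the other end, SNU13 had a ratio of 1.07, with stage means from 32.9 CPM at 60 days to 35.4 CPM at 360 days. On the FPKM scale the flattest genes were DHX38, a helicase of the second step (ratio 1.06), SRSF2 (1.07), SNU13 (1.08) and CRNKL1 of the PRP19 group (1.09), and the most variable were SNRPF (2.32), BCAS2 (1.74), SNRPG (1.73) and SNRPB2 of U2 (1.71).

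In no comparison was a spliceosome gene called. Calls followed the thresholds of the study, a Benjamini-Hochberg adjusted p of at most 0.05 and, between stages, a log2 fold change of at least 1 in size, in the quasi-likelihood test of edgeR fitted on all loci. For a difference between any of the 6 stages, 0 of 114 genes passed at the adjusted p alone, while 6.57% of all loci did, and 19 genes (16.7%) had an unadjusted p below 0.05 against 25.9% of all loci. DESeq2, run as an alternative, called 14 of the 114 genes in this test, among them DDX5, SRSF10, SNRPB2, PCBP1 and SRSF3. The 6.57% is the share in edgeR. The share of all loci that DESeq2 called is not given here, so its 14 genes cannot be read against a background. With edgeR, leaving out single libraries gave 0 to 2 genes: SMNDC1 without replicate 1 of 180 days, SRSF3 without replicate 1 or without replicate 2 of 240 days, PRPF6 without replicate 1 of 360 days, LSM6 and RBMXL1 without replicate 2 of 360 days, and DDX5 without replicate 3 of 360 days. The lowest adjusted p was that of DDX5, 0.0722.

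The 5 comparisons of adjacent stages share their middle stages, so their values are given side by side only. At 120 against 60 days edgeR called 0 of 114 genes, with 0.231% of all loci called. At 180 against 120, 240 against 180, 300 against 240 and 360 against 300 days it called 0 genes, and 0.0% of all loci. The paper, with edgeR and the same thresholds, reports differentially expressed genes in every comparison of adjacent stages. It does not state which test of edgeR was used. The shares of all loci given here belong to the quasi-likelihood fit. They do not show that backfat was unchanged between these stages, and the reason for the difference from the paper was not tested. DESeq2 and the exact test of edgeR also called 0 spliceosome genes in each of the 5. The shares of all loci that they called are not given here, so these counts cannot be read against a background. At an unadjusted p below 0.05 there were 6, 10, 7, 1 and 6 genes in the same order, or 5.26%, 8.77%, 6.14%, 0.877% and 5.26%, against 13.3%, 12.4%, 9.33%, 3.78% and 9.08% of all loci. The median log2 fold changes of the 114 genes were -0.02, 0.03, -0.00, -0.03 and 0.05, and those of all loci -0.01, -0.01, -0.00, -0.00 and 0.01. At 300 against 240 days 74 of the 114 genes were lower, so that 35.1% were higher against 49.7% of all loci. At 360 against 300 days 75 were higher, or 65.8% against 51.8% of all loci. In both comparisons 0 genes passed the test.

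Stages whose 3 libraries did not overlap were also counted. From 60 to 120 days this held for 23 of 114 genes (20.2%, against 24.3% of all loci), from 120 to 180 days for 18 (15.8%, against 19.1%) and from 180 to 240 days for 20 (17.5%, against 14.6%). It held for 6 genes from 240 to 300 days (5.26%, against 8.52%) and for 8 from 300 to 360 days (7.02%, against 10.8%). Between the first and the last stage it held for 32 genes (28.1%, against 31.2%), 17 of them higher and 15 lower at 360 days. These shares lay near those of all loci.

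The lowest p of the 114 genes at 120 against 60 and at 180 against 120 days was that of SRSF10, an SR-like protein known as a splicing repressor that is switched by dephosphorylation. Its libraries had 114, 115 and 108 CPM at 60 days, 82.0, 77.3 and 90.9 at 120 days, 133, 107 and 109.9 at 180 days, 83.5, 90.8 and 96.4 at 240 days, 98.1, 77.1 and 89.5 at 300 days, and 97.6, 102 and 75.5 at 360 days. All libraries of 60 and 180 days were above all libraries of the other 4 stages, whose ranges overlapped. The log2 fold change was -0.43 (SE 0.13, adjusted p = 0.161) at 120 against 60 days, 0.48 (SE 0.13, adjusted p = 0.156) at 180 against 120 days and -0.37 (SE 0.13, adjusted p = 0.375) at 240 against 180 days, in the edgeR fit of 3 libraries a stage. Within the stages that held both kinds of library, the low-Y library was the lowest of 120 days (77.3 CPM) and of 300 days (77.1 CPM), and the library of 60 days that is not low-Y was the highest there (115 CPM). With the log2 of the summed Y-linked CPM added to the model the log2 fold changes of SRSF10 were -0.48, 0.57 and -0.50 in the same order, with edgeR adjusted p of 0.181, 0.469 and 0.603.

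DDX39B, the export helicase also named UAP56, had its lowest means at 120 and 180 days, without passing the test. It had 159.5, 156 and 187 CPM at 60 days, 121, 124 and 153 at 120 days, 99.0, 132 and 132 at 180 days, 154, 176 and 151 at 240 days, 151, 145 and 140.1 at 300 days, and 151, 162 and 172 at 360 days. The 60-day libraries were all above the 120-day libraries, and the 240-day libraries all above the 180-day libraries. The log2 fold changes were -0.34 (edgeR adjusted p = 0.266) and 0.41 (adjusted p = 0.337) in these 2 comparisons. PHF5A, a small subunit beside SF3B1 in U2, went from 84, 93.3 and 85.5 CPM at 120 days to 66.7, 65.3 and 66.3 at 180 days, a log2 fold change of -0.41 (edgeR adjusted p = 0.193). The locus of PHF5A also holds TOB2. From 300 to 360 days, SNRPF had a log2 fold change of 0.79 (SE 0.30), SRSF7 of 0.35 (SE 0.13) and PPIH, a cyclophilin of the tri-snRNP, of -0.28 (SE 0.10), all with an edgeR adjusted p between 0.459 and 0.468. SNRPA1 of U2, with a log2 fold change of -0.33 at 300 against 240 days, was the 1 gene with an unadjusted p below 0.05 there, and its adjusted p was 1.

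**Figure D3:**
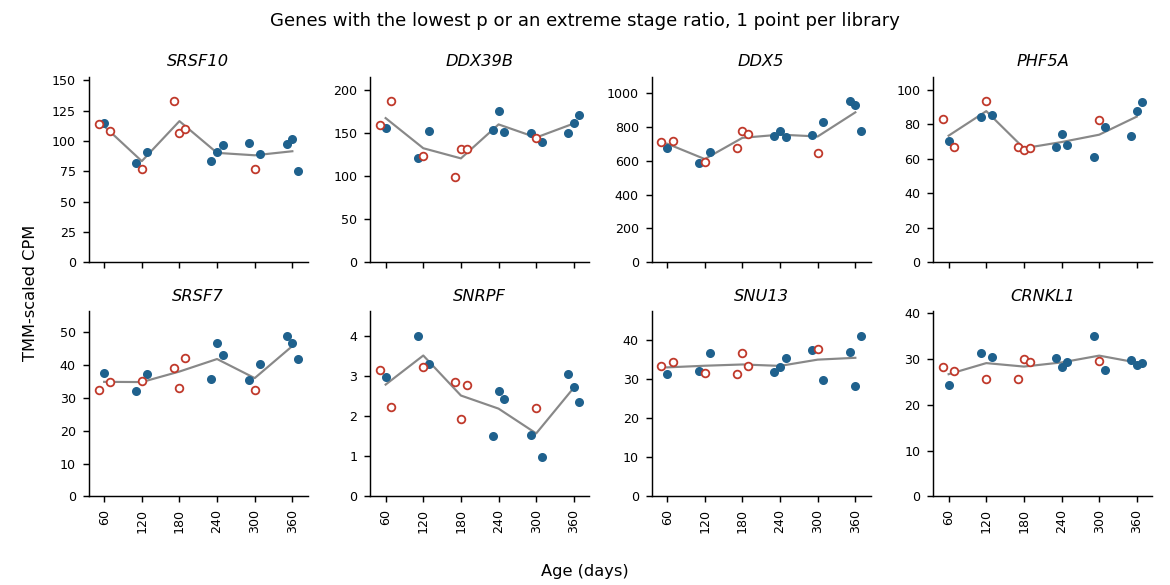
TMM-scaled CPM (vertical axes from 0) against age in days for 8 genes with the lowest p between stages or an extreme stage ratio. Each point is 1 library, open red points are the 7 low-Y libraries, and the grey line joins stage means. SRSF10 is high at 60 and 180 days, whereas SNU13 stays level. CRNKL1, among the flattest genes on the FPKM scale, has all its 360-day libraries above all its 60-day libraries on the CPM scale plotted here.

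For the youngest stage against the mean of the other 5, edgeR called 0 of 114 genes with 2.18% of all loci called, and 17 genes (14.9%, against 23.4%) had an unadjusted p below 0.05. DESeq2 also called 0 of the 114 genes, with its share of all loci not given here. The lowest adjusted p was that of PRPF31, which bridges the RNA of U4/U6 to the tri-snRNP. It had 58.4, 72.5 and 69.2 CPM at 60 days and between 44.3 and 60.9 CPM in the 15 later libraries, so 1 of the 3 young libraries overlapped them. The log2 difference was 0.28 (SE 0.08, adjusted p = 0.0514), for a locus that also holds CNOT3. THOC2, a scaffold of the export complex TREX, had a difference of 0.27 (SE 0.09, adjusted p = 0.0766), SRSF3 of -0.40 (SE 0.12, adjusted p = 0.0560), SMNDC1 of -0.31 (SE 0.10, adjusted p = 0.0680) and PRPF19, the ubiquitin ligase that names its complex, of -0.32 (SE 0.10, adjusted p = 0.0681).

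A trend along age was fitted over all 18 libraries and is given as a log2 change in CPM over the 300 days. With the fold threshold 0 of 114 genes were called, in edgeR and in DESeq2, where edgeR called 4.79% of all loci. The share that DESeq2 called is not given here. At an edgeR adjusted p of at most 0.05 and any fold, 16 genes passed, 10 higher and 6 lower with age, and 31 genes (27.2%, against 29.4% of all loci) had an unadjusted p below 0.05. The 16 genes are 14.0% of the 114 genes against 13.5% of all loci (7.35% higher and 6.13% lower), a share near the background. The median of the 114 genes was -0.00 and that of all loci -0.02, and single genes lay between -0.69 and 0.50. On the FPKM scale the median of all loci itself moved by -0.16 over the 300 days (limma on log2(FPKM + 0.1)), and changes are therefore given relative to the bulk of loci, as the TMM scale does. Unadjusted for that shift, limma passed 16 genes at the adjusted p on the FPKM scale, 0 higher and 16 lower, of which 6 were shared with the edgeR calls. The shares of all loci that limma passed in each direction are not given here, so this split cannot be read against a background. All 16 genes of the edgeR trend kept their sign on the FPKM scale and in each of the other settings tried.

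**Figure D4:**
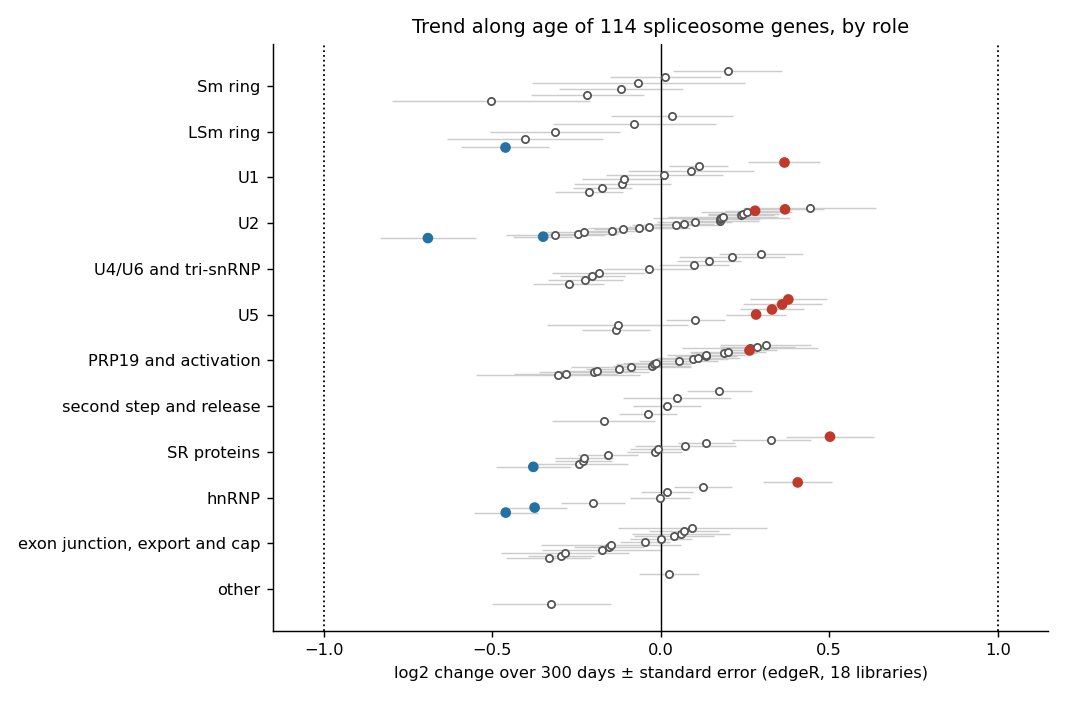
log2 change over 300 days of age (horizontal axis) with its standard error for each of the 114 genes, grouped by role. Filled points have an edgeR adjusted p of at most 0.05, red for higher and blue for lower with age, and dotted lines mark the 2-fold change that a call needs. All genes lie between -0.69 and 0.50.

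The count of 16 rested on single libraries. It was 7 without replicate 3 of 360 days, 9 without replicate 1 or without replicate 2 of 60 days or without replicate 3 of 120 days, and 10 without replicate 3 of 60 days. With the log2 of the summed Y-linked CPM added to the model it was 6, and it was 0 in the 11 libraries that are not low in Y-linked genes, which lack 180 days altogether. The shares of all loci that passed in these fits are not given here. Whether the count fell more for the spliceosome genes than for all loci was not tested. SNRPB2, RBMXL1, PCBP1, SRSF3 and SF3B1 were the 5 genes that passed in each of the 18 fits that left out 1 library.

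In U5, which holds the exon ends together for joining, 4 of 7 genes were higher with age at the adjusted p, where 7.35% of all loci were higher. EFTUD2, its GTPase, had 53.3, 51.5 and 46.4 CPM at 60 days, 50.7, 53.2 and 47.2 at 120 days, 53.6, 52.4 and 50.7 at 180 days, 58.2, 61.6 and 59.9 at 240 days, 65.4, 57.8 and 54.5 at 300 days, and 59.4, 51.3 and 73.1 at 360 days. The first 3 stages overlapped one another, all libraries of 240 and 300 days were above them, and 360 days spanned both ranges. The log2 change was 0.33 (SE 0.10, edgeR adjusted p = 0.0276). SNRNP200, the helicase that unwinds U4 from U6, had 129, 153 and 138 CPM at 60 days and 153, 146 and 184 at 360 days, with a log2 change of 0.28 (SE 0.09, adjusted p = 0.0413). PRPF6, a bridge of the tri-snRNP, had 44.8 to 59.1 CPM in 17 libraries and 84.5 CPM in replicate 3 of 360 days, with a log2 change of 0.38 (SE 0.11, adjusted p = 0.0346). DDX23, a helicase of U5, had 16.1, 16.5 and 13.4 CPM at 60 days and 22, 15.5 and 19.4 at 360 days, with a log2 change of 0.36 (SE 0.12, adjusted p = 0.0474). Of the 4, PRPF6 alone had its 60-day and 360-day libraries apart. Without replicate 3 of 360 days 0 of the 4 passed, with adjusted p from 0.0811 to 0.109 and a log2 change of 0.22 for PRPF6.

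The other 3 genes of U5 had log2 changes of 0.10 for PRPF8, the core protein at the catalytic centre, -0.13 for SNRNP40 and -0.13 for TXNL4A, with edgeR adjusted p of 0.458, 0.406 and 0.729. PRPF8 had 299.8, 278 and 276 CPM at 60 days and 251, 274 and 329 at 360 days. The median change of the 7 genes was 0.28.

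U2 had 4 genes past the adjusted p, 2 in each direction, and its 22 genes had a median trend of 0.09. SNRPB2, which binds a stem of the U2 RNA together with SNRPA1, had the lowest adjusted p of all 114 genes. Its libraries had 13.2, 11.8 and 9.97 CPM at 60 days, 11.2, 13.1 and 10.1 at 120 days, 9.94, 12.6 and 10.8 at 180 days, 8.83, 8.69 and 8.80 at 240 days, 8.26, 9.18 and 7.10 at 300 days, and 8.64, 8.48 and 5.88 at 360 days. All 9 libraries up to 180 days were above all 9 from 240 days on. The log2 change was -0.69 (SE 0.14, edgeR adjusted p = 0.00453), and -0.63 (adjusted p = 0.0749) in the 11 libraries that are not low-Y. SNRPB2 lies on chromosome 17 at 25363149 to 25374100 of Sscrofa11.1. Its partner SNRPA1 had a log2 change of -0.23 (adjusted p = 0.209).

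SF3B1, the target of several compounds that block splicing, was also lower with age. It had 653, 644 and 536 CPM at 60 days, 603, 557 and 597 at 120 days, 562, 603 and 569.6 at 180 days, 495, 501 and 489 at 240 days, 470.1, 484 and 574 at 300 days, and 489, 535 and 441 at 360 days. The 60-day libraries were all above the 360-day libraries by a narrow margin, and the 180-day libraries all above the 240-day libraries. The log2 change was -0.35 (SE 0.09, edgeR adjusted p = 0.0155), for a locus that also holds ANKRD44. Other subunits of the same SF3b complex had changes between -0.31 (SF3B6) and 0.44 (SF3B5), with edgeR adjusted p of 0.162 and 0.144.

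The other 2 genes of the U2 group past the adjusted p were higher with age. U2AF1, the small subunit of the factor that reads the end of the intron and recruits U2, had 50.2, 54.8 and 56.6 CPM at 60 days and 59.3, 64.2 and 76.2 at 360 days, without overlap, and a log2 change of 0.28 (SE 0.09, edgeR adjusted p = 0.0448). SMNDC1, also called SPF30, a protein found with U2 that the tri-snRNP needs to join, had 33.5, 31.9 and 30.3 CPM at 60 days and 40.1, 42.1 and 41.3 at 360 days, again without overlap, and a log2 change of 0.37 (SE 0.12, adjusted p = 0.0415). Its values of 46.3 and 45.5 CPM in 2 libraries of 180 days were already above those of 360 days. Each passed in 7 of the 18 fits without 1 library.

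In U1, DDX5 was the 1 gene of 8 past the adjusted p, for a locus that also holds PECAM1 and POLG2. It had 713, 672 and 716 CPM at 60 days, 586, 594 and 649 at 120 days, 676, 773 and 756 at 180 days, 744, 777 and 741 at 240 days, 754, 645 and 829.8 at 300 days, and 951, 928 and 778 at 360 days. The 120-day libraries were below those of 60 and of 180 days, and the 360-day libraries above all those of 60, 120, 180 and 240 days. The log2 change was 0.37 (SE 0.11, edgeR adjusted p = 0.0280). SNRNP70, the U1 protein that binds its RNA near the 5′ end, had a change of 0.11 (adjusted p = 0.421). In the rings, LSM6 had 63.9, 73.1 and 71.2 CPM at 60 days and 49.1, 67.3 and 47.6 at 360 days, with a log2 change of -0.46 (SE 0.13, adjusted p = 0.0249), while 0 of the 6 Sm genes passed. In the PRP19 group WBP11, a nuclear partner of PQBP1, was the 1 gene of 20 past the adjusted p, with 28.9, 29.5 and 29.7 CPM at 60 days, 30.7, 39.3 and 37.2 at 360 days and a change of 0.26 (SE 0.08, adjusted p = 0.0460). U4/U6 and the tri-snRNP, the second step, and the exon junction, export and cap genes had 0 of 9, 0 of 5 and 0 of 12 genes past it. EIF4A3, the anchor of the exon junction complex, had a change of 0.00 (adjusted p = 0.992).

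**Figure D5:**
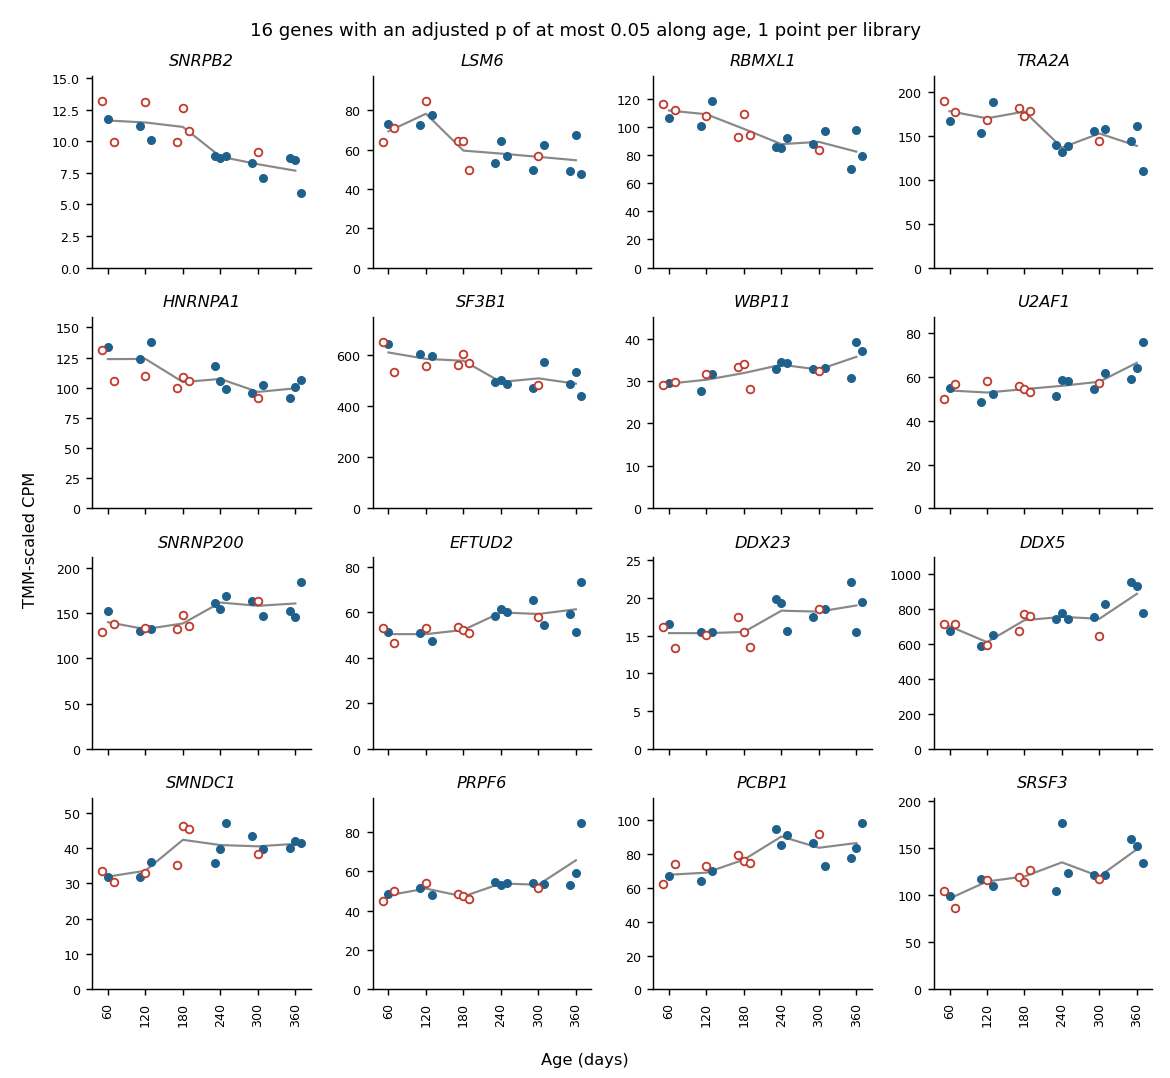
TMM-scaled CPM (vertical axes from 0) against age in days for the 16 genes with an edgeR adjusted p of at most 0.05 along age, from the largest fall (SNRPB2, -0.69) to the largest rise (SRSF3, 0.50) in log2 change. Each point is 1 library, open red points are the 7 low-Y libraries, and the grey line joins stage means. Replicate 3 of 360 days is the high point of PRPF6 at 84.5 CPM.

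Among the SR proteins, which pair with exons through RNA and with the core through their arginine and serine repeats, 1 of 11 was higher and 1 lower with age. SRSF3, the smallest of the family, had 104, 98.8 and 86.3 CPM at 60 days, 117, 116 and 110.0 at 120 days, 119, 113 and 127 at 180 days, 105, 176 and 123 at 240 days, 121, 117 and 121 at 300 days, and 160.0, 153 and 134 at 360 days. The 60-day libraries were below all later ones, and the 360-day libraries were above all others except 1 of 240 days at 176 CPM. The log2 change was 0.50 (SE 0.13, edgeR adjusted p = 0.0163), the largest rise of the 114 genes. TRA2A, an SR-like activator of exons, had 189, 167 and 177 CPM at 60 days, 153, 168 and 188 at 120 days, 182, 172 and 178 at 180 days, 139.7, 131 and 138 at 240 days, 156, 144 and 158 at 300 days, and 144, 161 and 110.3 at 360 days. All libraries of 60 and 180 days were above all of 240, 300 and 360 days. The log2 change of TRA2A was -0.38 (SE 0.11, edgeR adjusted p = 0.0306), for a locus that also holds IGF2BP3. Its paralogue TRA2B had a change of 0.07 (adjusted p = 0.781). SRSF1, SRSF5 and SRSF7 had changes of -0.16, -0.01 and 0.33, with adjusted p of 0.248, 0.963 and 0.0681.

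Of the 7 hnRNPs, 1 was higher and 2 were lower with age. PCBP1 had 61.9, 66.8 and 74.2 CPM at 60 days, 63.8, 72.8 and 70.1 at 120 days, 79.1, 75.8 and 74.9 at 180 days, 94.4, 85.3 and 90.9 at 240 days, 86.2, 91.8 and 72.7 at 300 days, and 77.3, 83.6 and 98.2 at 360 days. The libraries of 180 days were above all those of 60 and 120 days and below all those of 240 days, and the log2 change was 0.41 (SE 0.10, edgeR adjusted p = 0.0145). HNRNPA1, which binds splicing silencers, had 131, 134 and 106 CPM at 60 days, 124, 109 and 138 at 120 days, 99.6, 109 and 106 at 180 days, 118, 106 and 98.5 at 240 days, 95.7, 91.7 and 102 at 300 days, and 91.8, 100.4 and 106 at 360 days. The 180-day libraries were below those of 120 days, the other neighbouring stages overlapped, and the log2 change was -0.37 (SE 0.10, adjusted p = 0.0163). RBMXL1, a member of the RBMX family whose locus lies on chromosome X at 111961158 to 111974640, had 116, 107 and 112 CPM at 60 days, 101, 108 and 118 at 120 days, 93.0, 109 and 94.0 at 180 days, 86.1, 85.4 and 91.9 at 240 days, 87.8, 83.4 and 97.2 at 300 days, and 70.2, 98.1 and 79.1 at 360 days.

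The 60-day and 120-day libraries of RBMXL1 were all above those of 240, 300 and 360 days, and its log2 change was -0.46 (SE 0.10, edgeR adjusted p = 0.00461). The genes on chromosome X were 3: RBMXL1, PQBP1 and THOC2. The name RBMXL1 is kept as in the deposited table, and whether this locus is RBMX itself was not tested. RBMXL1 had 83.4 to 116 CPM in the 7 low-Y libraries and 70.2 to 118 CPM in the other 11. With the log2 of the summed Y-linked CPM added to the model its change was -0.45 (adjusted p = 0.0215). THOC2 had 98.9 to 135 CPM in the low-Y libraries and 85.2 to 128 CPM in the others. HNRNPK, at 13.8 FPKM the second hnRNP in level, had a change of 0.02 (adjusted p = 0.895).

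Counted over stages, 37 of the 114 genes had their highest mean CPM at 360 days (32.5%, against 22.8% of all loci), 27 at 60 days (23.7%, against 23.6%), 22 at 180 days (19.3%, against 14.9%), 12 at 120 days (10.5%, against 16.5%), 12 at 240 days (10.5%, against 13.2%) and 4 at 300 days (3.51%, against 8.97%). The lowest mean was also at 360 days for 23 genes (20.2%, against 21.3%). The course of a typical member was measured as the median over the 114 genes of log2(FPKM + 0.1), centred on each gene. The genes most like it over the 18 libraries were DDX46 (r = 0.90), HNRNPA3 (r = 0.90), THOC2 (r = 0.88), SF3B1 (r = 0.88) and SRSF9 (r = 0.87), a likeness that includes the shift of the FPKM scale shared by all loci.

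Other measures moved along age in the same libraries. Their counts can be read against all loci, of which 7.35% were higher and 6.13% lower at the edgeR adjusted p. Of 9 immediate early loci tested, 8 were higher with age at an edgeR adjusted p of at most 0.05, and their summed level was 756 to 878 CPM at 60 days, 624 to 1221 at 120 days, 654 to 1885 at 180 days, 2151 to 2351.5 at 240 days, 1623 to 2392 at 300 days and 2848 to 4387 at 360 days. The endothelial list, without the locus that DDX5 shares with PECAM1, had 7 of 12 loci higher, all of them pieces of VWF, and 1 lower, KDR. It summed to 940.5 to 1243 CPM at 60 days, 822 to 848 at 120 days, 1040.5 to 1101 at 180 days, 984 to 1088 at 240 days, 1132 to 1320.1 at 300 days and 1442 to 1606 at 360 days. Of 7 fibroblast and preadipocyte loci 3 were lower, and the list summed to 11364 to 19309 CPM at 60 days, 24841 to 35128 at 120 days, 9636.5 to 22560 at 180 days, 5658 to 13973 at 240 days, 10014 to 10984 at 300 days and 7125 to 11772 at 360 days. None of the found markers of these lists was at 0 in all libraries.

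The part of these cell types and of handling after slaughter in the 16 trends was not tested, and in tissue RNA fewer cells of a type and less RNA per cell cannot be told apart. Of the other lists along age, the adipocyte list had 2 of 12 loci higher, macrophage 1 of 7 and smooth muscle 1 of 4 higher, heat shock 1 of 7 lower, and lymphocyte 0 of 4, skeletal muscle 0 of 4 and red cell 0 of 1. Over all loci 7.35% were higher and 6.13% lower. With lists this short, counts of 1 or 2 loci are not read as a change of the list. Skeletal muscle genes were uneven, from 0.773 to 220.1 summed FPKM between libraries.

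Genes around the spliceosome were read from lists outside the pathway entry. Of 8 minor spliceosome loci tested, which serve the rare introns of the U12 type, 1 was lower along age at the edgeR adjusted p: RNPC3, with a log2 change of -0.62 (SE 0.17, adjusted p = 0.0209). Of 21 loci of SR protein kinases and transport, the CLK and SRPK families among them, 0 passed. Of 17 loci of snRNP assembly 1 was lower, GEMIN2 of the SMN complex, with a change of -0.39 (SE 0.10, adjusted p = 0.0120). Of 40 loci of other splicing regulators 1 was higher, NOVA2 (0.67, adjusted p = 0.0121), and 5 were lower: loci of QKI (-0.55), RBFOX2 (-0.37), NONO (-0.35), KHDRBS1 (-0.32) and RBM5 (-0.24, in a locus shared with RBM6). All these shares can be read against 13.5% of all loci.

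Of 313 tested loci with the Rfam name of a spliceosomal RNA, 18 were higher and 7 lower along age at the edgeR adjusted p, where 7.35% of all loci were higher and 6.13% lower. These RNAs exist in near-identical copies, so values at single loci are uncertain. The U1 locus with the highest mean, on chromosome 12, ranged from 25.8 FPKM in replicate 2 of 60 days to 125.5 FPKM in replicate 3 of 360 days. Its log2 change along age was 1.16 (SE 0.34, edgeR adjusted p = 0.0305), and 0.71 (adjusted p = 0.177) without replicate 3 of 360 days. The highest U2 locus, on chromosome 2, ranged from 191.6 to 487 FPKM and the highest U4 locus, on chromosome 14, from 22.4 to 101 FPKM, both highest in that same library. Structural RNAs outside the spliceosome were high there too: 7SK loci took 2.04% of its counts, against at most 1.57% in any other library. The loci of U5 and of U6 took their lowest shares of counts in it.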

How the data were processed

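Backfat RNA of 18 pigs (6 ages, 3 pigs each) was read by paired-end sequencing after ribosomal RNA removal. The authors used Cutadapt for trimming, Hisat2 for alignment to Sscrofa11.1 (Ensembl 96) and StringTie for the assembly of loci. The deposited table gives, for each of 27883 loci and 18 libraries, a whole-number count, with the counting step not given in the sources used here, and an FPKM value computed by the authors through StringTie.

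The members and gene lists were chosen with earlier results of these data known. Names came from the deposited table, and for 15 of the 114 genes from its description or a name table, in which 10 of the 22 gene IDs among the names were matched. The 19470 loci that reached 0.5 FPKM in 3 or more libraries were tested on deposited counts with edgeR 4.0.16 (glmQLFit, glmQLFTest, TMM) in R 4.3.3, with 6 stage groups, 12 residual degrees of freedom and Benjamini-Hochberg adjustment. The trend used age as a covariate, scaled to 300 days. The common biological coefficient of variation was 0.34. Depth was 74077094 to 84236689 counts a library. In the fit with 6 stage groups, p-values measure the spread between sibs. Those of the trend come from a separate fit, whose spread also includes departures of stage means from the line.

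Named genes were those with the 5 highest and 3 lowest mean FPKM, the lowest p per comparison and direction (2 each), the 4 highest and 4 lowest stage ratios of FPKM, the highest of each role and a fixed list. All genes past the adjusted p along age were added after their values were seen, as were HNRNPK and the partners of named genes.

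Alternatives were no filter, a minimum of 1 FPKM in some library, size factors from medians of ratios, DESeq2 1.42.0, limma 3.58.1 on log2 FPKM with a pseudocount of 0.1 or 1, the replicate number as a block, the log2 of the summed Y-linked CPM (pseudocount 0.1) as a further model term, leaving out the low-Y libraries (a summed Y-linked level under 20 CPM), and leaving out each library. The edgeR exact test and the trend at any fold were added after seeing the data. Sequences were not used here. The scripts were tested on simulated data. Calculations in Python 3.11.15 used pandas 2.3.3, numpy 2.4.6 and, for plots, matplotlib 3.10.9.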

Additional observations from a re-analysis of the deposited data

How the results depend on the processing

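The count of spliceosome genes called was 0 under every alternative run for the 5 adjacent comparisons and for 60 days against the later stages. Shares of all loci are not given here for the alternatives, so their counts have no background. For the difference between any of the 6 stages the count was 14 with DESeq2, with no share of all loci beside it. When single libraries were left out of the edgeR fit it was 0 to 2. Along age it was 16 at the adjusted p alone. That count of 16 was 6 with the log2 of the summed Y-linked CPM in the model, 0 without the low-Y libraries, where fewer samples and no 180-day libraries enter, and 7 to 16 with single libraries left out. The lower counts cannot be read as particular to the spliceosome genes, since the shares of all loci are not given for these fits. The numbers 1 to 3 do not pair the pigs: libraries of different stages with the same number had a mean correlation of 0.013 in their deviations from the stage means, and -0.006 for other numbers, and 5 of 18 libraries were closest to one of their own number. With the replicate block 14 genes had an adjusted p of at most 0.05 along age, all 14 among the 16, and 0 genes were called in the other comparisons.

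The median log2 fold change of the 114 genes moved with limma on log2 FPKM (pseudocount 0.1, then 1) to -0.10 and -0.086 at 120 against 60 days, to -0.036 and -0.031 at 240 against 180 days, to -0.0097 and -0.0082 at 360 against 300 days, to 0.15 and 0.11 at 60 days against the rest, and to -0.16 and -0.13 along age; FPKM carry no TMM scaling. Without the low-Y libraries it was -0.049 at 120 against 60 days and 0.029 along age, and the cause was not tested. With single libraries left out the medians ranged from -0.056 to 0.00087 at 120 against 60 days, -0.011 to 0.054 at 180 against 120 days, -0.026 to 0.020 at 240 against 180 days, -0.044 to -0.021 at 300 against 240 days, 0.044 to 0.068 at 360 against 300 days, 0.0048 to 0.044 at 60 days against the rest and -0.021 to 0.0094 along age. Leaving out the low-Y libraries gave no value for the comparisons that need 180 days, 60 days against the rest among them, because that stage then has no library. Depth limits the lowest genes most, such as SNRPF at 0.974 to 4.0 CPM.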
